A study of Mus musculus with 59 samples.

Results

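The prefrontal cortex of male mice heterozygous for Ash1l was compared with that of wild-type males, both raised on vehicle. The comparison used the libraries whose names carry the code for vehicle and M, which the titles give as male: 5 heterozygous (HT vehicle male) and 5 wild-type (WT vehicle male), 10 of the 59 libraries of the series. All mice were C57BL/6J and were sampled at postnatal day 25, after 3 weeks (postnatal days 3 to 24) in which vehicle, fluoxetine or lithium was given to the mother and reached the pups in her milk. The other 49 libraries were HT and WT mice of both sexes in the remaining drug and sex strata: vehicle females, and fluoxetine and lithium males and females, with 5 libraries in each group except HT lithium females with 4. The labels do not say which allele of Ash1l was used, what the vehicle was, how many dams or litters stood behind a group, or whether a library came from 1 animal. P-values therefore measure the spread between these samples.

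Ash1l encodes a histone methyltransferase that modifies lysine 36 of histone H3 (H3K36), a mark of active chromatin. The protein works with the subunit encoded by Morf4l1 and belongs to the Trithorax group, which keeps genes active and opposes the Polycomb group, whose enzymes methylate another lysine of the same histone and keep developmental genes silent. Genes under this opposition include patterning factors of the embryo, such as homeobox and T-box genes. In humans, ASH1L is among the genes in which damaging variants are linked to autism and intellectual disability.

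Only Ash1l passed the test across all genes in these males, so the genes followed besides it were those called by genotype in the other 49 libraries. The stretches of 250 bases before the RefSeq start of 4 such genes are shown because CG-rich promoters are where Trithorax and Polycomb proteins are known to act in mammals. They are printed 5′ to 3′ on the gene's strand in build GRCm38.p6, with each CG in capitals. The 4 are a selection from the genes called there, made without a stated rule, and no such stretch was at hand for Ash1l or Skida1. Met lies on the plus strand of chromosome 6 (17463707 to 17463956), Tbx1 on the minus strand of chromosome 16 (18590672 to 18590921), Neurog2 on the plus strand of chromosome 3 (127632886 to 127633135) and Trp53i11 on the plus strand of chromosome 2 (93187298 to 93187547).
Met: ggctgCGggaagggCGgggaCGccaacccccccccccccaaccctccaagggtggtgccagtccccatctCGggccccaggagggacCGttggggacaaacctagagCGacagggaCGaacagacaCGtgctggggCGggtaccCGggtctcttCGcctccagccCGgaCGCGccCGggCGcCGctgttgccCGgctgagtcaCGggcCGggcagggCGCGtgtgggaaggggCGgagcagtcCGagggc
Tbx1: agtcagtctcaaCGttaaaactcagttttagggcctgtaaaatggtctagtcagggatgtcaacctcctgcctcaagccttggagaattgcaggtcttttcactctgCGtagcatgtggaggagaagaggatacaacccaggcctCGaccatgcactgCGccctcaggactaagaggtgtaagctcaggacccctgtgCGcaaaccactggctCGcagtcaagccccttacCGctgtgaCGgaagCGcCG
Neurog2: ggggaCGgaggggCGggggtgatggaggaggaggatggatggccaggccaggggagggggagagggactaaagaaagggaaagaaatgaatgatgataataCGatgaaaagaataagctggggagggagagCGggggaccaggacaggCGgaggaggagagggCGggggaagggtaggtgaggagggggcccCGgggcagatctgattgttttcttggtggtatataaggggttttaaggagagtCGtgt
Trp53i11: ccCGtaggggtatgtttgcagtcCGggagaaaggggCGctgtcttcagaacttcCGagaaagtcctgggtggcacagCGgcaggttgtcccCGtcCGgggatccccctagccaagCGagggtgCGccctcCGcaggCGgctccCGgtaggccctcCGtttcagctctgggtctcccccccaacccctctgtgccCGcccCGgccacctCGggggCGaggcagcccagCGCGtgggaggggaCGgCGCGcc
The dinucleotide CG reads the same on both strands. It occurred 24 times before Met, 10 times before Tbx1, 8 times before Neurog2 and 22 times before Trp53i11. Over 32851 RefSeq windows of the same length the median was 6, and windows with at least as many made up 12% of all for Met, 37.8% for Tbx1, 43% for Neurog2 and 14.8% for Trp53i11. The counts describe the windows and say nothing of what binds there.

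The 10 libraries held between 25.69 M and 36.17 M reads and detected 17952 to 18020 genes. Xist, which female cells use to shut down 1 of their X chromosomes, was at a normalised read count of at most 12.4 in all 10, and the Y-linked Ddx3y lay between 1210 and 2260. WT replicate 2 stood apart from the other 9: its deviation from the mean of the 10 libraries, across genes, went with GC content at a Spearman coefficient of -0.499, against -0.231 to 0.252 in the others. Its limma quality weight was 0.178, against 0.6 to 1.76. The libraries also differed in markers of neighbouring regions. HT replicate 5, WT replicate 1 and WT replicate 3 had the highest olfactory bulb marker levels, and HT replicate 5 the highest striatal marker level. Several values depended on 1 of these libraries and are also given without it.

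Ash1l fell in HT vehicle males. The normalised read count (reads divided by the library's size factor) of Ash1l (ENSMUSG00000028053, chromosome 3, 88950622 to 89079375, plus strand, GRCm38) was 4074, 3966, 4307, 3889 and 4244 in the 5 HT libraries, against 5014, 6218, 5430, 5401 and 5026 in the 5 WT libraries. Every HT library was below every WT library. The means were 4096 ± 178 in HT and 5418 ± 489 in WT (SD, n = 5 each), a ratio of 0.758. The log2 fold change was -0.40 ± 0.0557 (standard error; limma fitted across all genes, adjusted p = 3.67e-05), and an exact two-sided permutation test of the 10 values gave p = 0.00794, the smallest that 252 splits allow. The call rests on the spread shared by all 59 libraries: with the 10 libraries fitted alone, limma gave the same fold change with an adjusted p of 0.814, and with the 20 vehicle libraries 0.904, within a range of 1.11e-09 to 0.904 over 23 alternatives of which 21 kept the call. Without WT replicate 2, the highest library, the difference was -0.35. As the tissue is a mixture, fewer cells that express a gene and less of its RNA per cell cannot be told apart, here and in the values that follow.

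The same direction appeared in the 5 strata that share no library with vehicle males. There the log2 fold change of Ash1l, averaged with equal weight, was -0.30 ± 0.0252 (limma, adjusted p = 2.92e-12). By stratum it was -0.34 in fluoxetine males, -0.35 in fluoxetine females, -0.30 in lithium males, -0.38 in lithium females and -0.11 in vehicle females. The value in vehicle males minus that average was -0.10 ± 0.0611 (limma, adjusted p = 0.783), which did not pass the threshold. The value in vehicle males minus that in vehicle females was -0.29 ± 0.0788 (limma, adjusted p = 0.0367). In vehicle females, Ash1l averaged 4220 ± 123 in HT and 4600 ± 599 in WT (SD, n = 5 each), with WT libraries between 3557 and 5048. No gene, Ash1l included, was called in this difference without WT vehicle female replicate 3 or without WT vehicle male replicate 2.

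**Figure D1:**
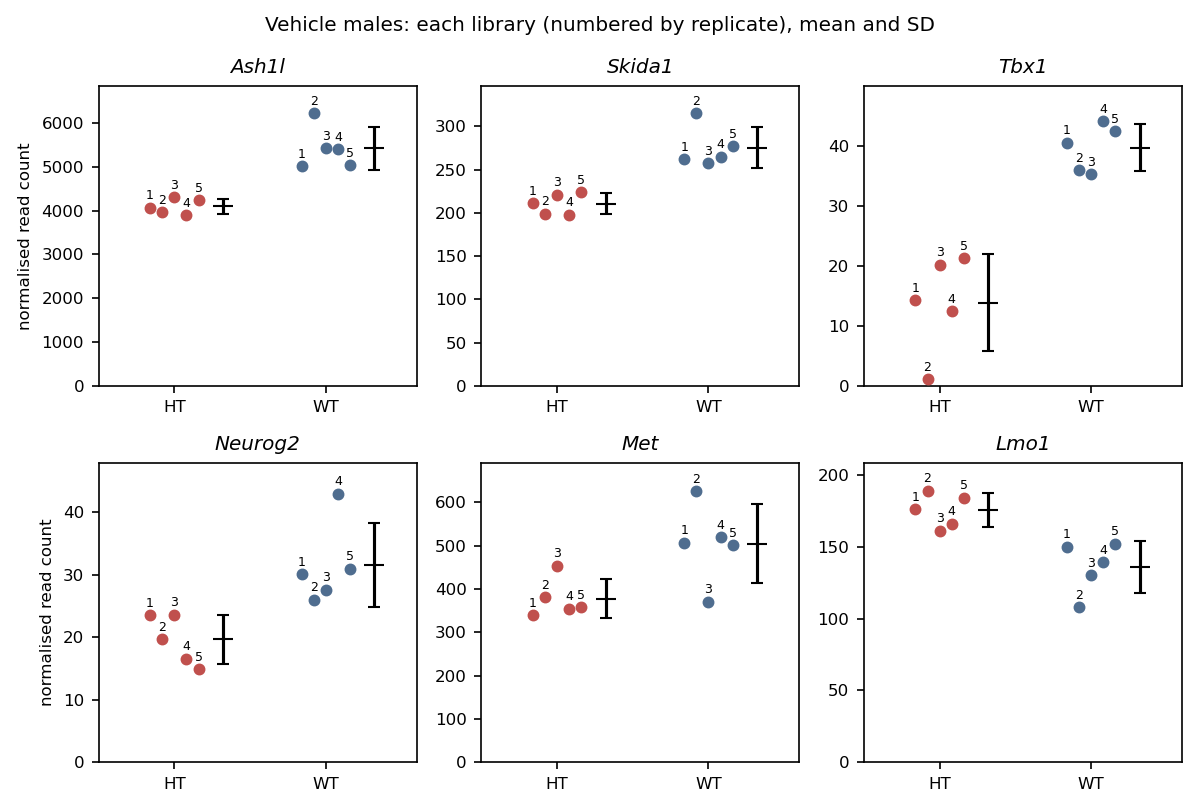
Normalised read counts (vertical axes, from 0) of 6 genes in the HT and WT vehicle male libraries; points are libraries numbered by replicate, and the black marks are the mean and SD of 5. The HT and WT libraries did not overlap for Ash1l, Skida1, Tbx1, Neurog2 and Lmo1, and for Met HT replicate 3 (454) lay above WT replicate 3 (371).

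The genes around Ash1l did not pass. Of 79 genes tested within 1 Mb on either side, 48 were higher and 31 lower in HT, the median log2 fold change was 0.02, and 3 had an unadjusted p under 0.05. Over all genes, 49% were higher, 51% were lower and 6.94% had an unadjusted p under 0.05, a share that the 3 do not exceed. The neighbours gave -0.02 ± 0.0704 for Msto1 and 0.00 ± 0.103 for Rusc1. Dap3, a mitochondrial ribosomal protein gene that overlaps Ash1l, averaged 1410 ± 78.6 in HT and 1300 ± 139 in WT (SD, n = 5 each; log2 fold change 0.12 ± 0.059; limma, adjusted p = 0.718). Reads of overlapping genes may be split by the counting. The 3 further genes with the smallest p-values, Gm15998, Gm15417 and Ssr2, had log2 fold changes of -0.71 ± 0.297, -0.38 ± 0.164 and 0.12 ± 0.0602 and adjusted p of 0.705, 0.705 and 0.733 in limma.

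Across the 17875 genes tested, Ash1l was the 1 gene called at an adjusted p under 0.05 (0.00559% of genes). An unadjusted p under 0.05 was reached by 1240 genes (6.94%), 658 higher (3.68%) and 582 lower (3.26%) in HT. The groups did not overlap for 127 genes (0.71%). Differences were small: the median size of a log2 fold change was 0.095, and 133 genes reached 1 in either direction. Of all genes, 8764 (49%) were higher and 9111 (51%) lower in HT.

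Skida1, which encodes a protein with a SKI/DACH domain, came nearest to Ash1l without passing. Its normalised read count was 211, 199, 221, 198 and 224 in HT, against 262, 315, 257, 265 and 277 in WT, and the groups did not overlap. The log2 fold change was -0.38 ± 0.0773 (limma, adjusted p = 0.0684). It passed in 2 of 23 alternatives, DESeq2 on the recovered reads (adjusted p = 0.0197) and limma with a stricter filter on low counts (adjusted p = 0.043), with a range of 0.0197 to 0.988 over all 23. In the other 49 libraries Skida1 was called, at -0.30 ± 0.035 (limma, adjusted p = 1.55e-07), and by stratum it lay between -0.41 in fluoxetine males and -0.17 in vehicle females.

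Among the higher genes, the 12 with the smallest p-values were not called either. Ndufaf5, an assembly factor of respiratory complex I, had 577, 637, 570, 569 and 522 normalised reads in HT, against 487, 399, 513, 437 and 511 in WT (log2 fold change 0.30 ± 0.0683; limma, adjusted p = 0.294), and the groups did not overlap. Lox, the lysyl oxidase that cross-links collagen and elastin, averaged 99.3 ± 19.5 in HT and 64.4 ± 11.8 in WT (SD, n = 5 each), the largest log2 fold change of the 12 at 0.61 ± 0.178. The other 10 had log2 fold changes of 0.21 to 0.41. They were Pxdc1, Mtch1 (a protein of the outer mitochondrial membrane), Tmem120b, Tmem9, Psmb1 (a proteasome subunit), Rps6 (a protein of the small ribosomal subunit), Pdrg1, Naaa (a lysosomal hydrolase of lipid amides), Polr1d (a subunit of RNA polymerases I and III) and Usp35 (a deubiquitinase). WT replicate 2 was the lowest of the 10 libraries for all 12 genes. Without it, their median log2 fold change was 0.20, against 0.28 with it; for Rps6 it was 0.12 in place of 0.24, and for Usp35 0.22 in place of 0.35.

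The 12 lower genes with the smallest p-values included Skida1 and 11 more, also not called. Mid1, a ubiquitin ligase gene that spans the pseudoautosomal boundary of C57BL/6 sex chromosomes, had 304, 736, 461, 336 and 669 normalised reads in HT, against 797, 998, 1300, 1510 and 773 in WT. The groups did not overlap, and the log2 fold change was -1.14 ± 0.293 (limma, adjusted p = 0.547). Reads from the part of Mid1 that the X and Y chromosomes share cannot be told apart, so its level is uncertain. Mx2, an interferon-induced GTPase, had 31.7, 27.3, 23.6, 24.1 and 35.1 in HT, against 48.8, 51.9, 51.9, 53.0 and 42.4 in WT (log2 fold change -0.80 ± 0.241; limma, adjusted p = 0.705). Zzz3, which belongs to a histone acetyltransferase complex, averaged 1610 ± 44.4 in HT and 1870 ± 133 in WT (SD, n = 5 each; log2 fold change -0.21 ± 0.0584), again without overlap. The rest were Tchh (trichohyalin, -0.56), Pcsk2os1 (a transcript opposite Pcsk2, -0.55), Ptpn21 (a tyrosine phosphatase, -0.38), Ccdc18 (-0.71), Ttc22 (-0.57), Pcdh15 (a cadherin of hair-cell tip links, -0.45), Stc2 (stanniocalcin, -0.53) and Mybpc1 (a myosin-binding protein, -0.61). WT replicate 2 was the highest library for 6 of the 12, and without it their median was -0.53.

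These 24 genes, chosen for their p-values in vehicle males, were looked up in the other 49 libraries. There 14 of 24 had the same direction, 8 of the 12 higher and 6 of the 12 lower. The median log2 fold change was 0.02 for the higher and 0.00 for the lower, against 0.28 and -0.55 in vehicle males. Besides Skida1, Tchh was called there, at -0.29 ± 0.0646 (limma, adjusted p = 0.0304). Ttc22, at -0.18 ± 0.075, had an unadjusted p under 0.05 there without being called. Mid1 had 0.14 ± 0.133, Zzz3 0.01 ± 0.0265 and Mx2 0.07 ± 0.109.

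The look-up was also made in the opposite direction. In the other 49 libraries 38 genes were called (0.213% of genes), 10 higher and 28 lower in HT. Of the 37 besides Ash1l, 33 had the same direction in vehicle males, against 49% higher and 51% lower over all genes: 9 of the 10 higher and 24 of the 27 lower. An unadjusted p under 0.05 was reached by 13 of 37 in the same direction and by 0 in the other, against 6.94% of all genes, and none passed the adjusted threshold (limma). The median log2 fold change was 0.24 for the higher and -0.24 for the lower in vehicle males, against 0.24 and -0.31 in the other 49. The count of 33 was 33 to 35 with any 1 of the 10 libraries left out, and 33 with the GC trend removed or with striatal and olfactory bulb marker levels as covariates. The first 10 of these genes were named by rule, and the naming of the rest was chosen after their values were seen. Among the first 10, Gm37069 gave -0.12 ± 0.167 in vehicle males, against -0.40 ± 0.0757 in the other 49. AC122898.1 gave -0.34 ± 0.159, against -0.36 ± 0.0721.

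**Figure D2:**
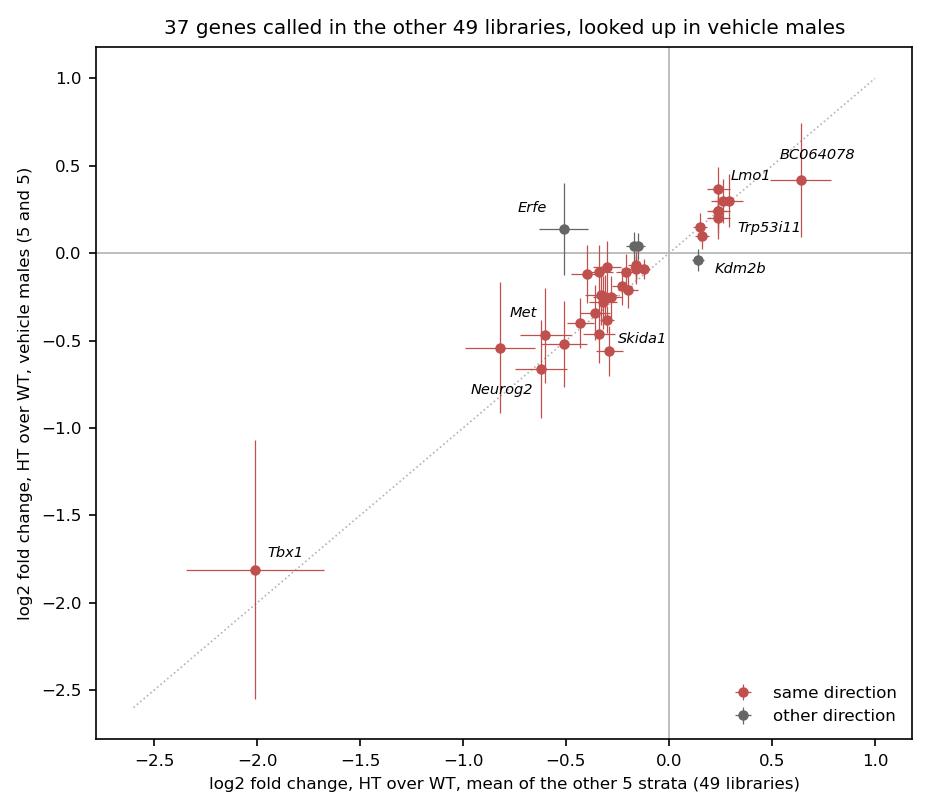
Log2 fold change, HT over WT, in vehicle males (vertical) against the mean of the other 5 strata (horizontal) for the 37 genes besides Ash1l called there; bars are standard errors and the dotted line marks equality. 33 of the 37 lie on the same side of 0 on both axes (red), and 4 do not (grey).

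Of these genes, Tbx1, a T-box factor of pharyngeal and heart development, had 14.3, 1.09, 20.2, 12.5 and 21.3 normalised reads in HT, against 40.5, 35.9, 35.3, 44.1 and 42.4 in WT. Every HT library was below every WT library, and the log2 fold change was -1.81 ± 0.743 (limma, adjusted p = 0.705), against -2.01 ± 0.336 in the other 49 (adjusted p = 0.000909). At these low counts the value depended on the pseudocount, and was -1.14 with 10 in place of 1. It was -1.20 without HT replicate 2, the lowest library. Neurog2, a proneural factor of cortical progenitors, had 23.5, 19.7, 23.6, 16.6 and 14.9 in HT, against 30.1, 26, 27.6, 43.0 and 31.0 in WT, again without overlap. Its log2 fold change was -0.66 ± 0.28, and -0.62 ± 0.127 in the other 49. Dmrt2, a DM-domain factor, gave -0.52 ± 0.245 and -0.51 ± 0.111 in the same pair of comparisons. Lmo1, a LIM-domain cofactor of transcription, had higher values in HT, with 176, 189, 161, 166 and 184 in HT, against 150, 108, 130, 139 and 152 in WT. Its groups did not overlap, and it gave 0.37 ± 0.126 in vehicle males and 0.24 ± 0.0569 in the other 49. Skida1, Tbx1, Neurog2 and Lmo1 were the 4 of 37 genes whose groups did not overlap, against 0.71% of all genes.

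Receptors, ligands and adhesion molecules came next. Met, the receptor of hepatocyte growth factor, which is known to shape the wiring of forebrain projection neurons, had 340, 382, 454, 355 and 358 normalised reads in HT, against 507, 626, 371, 519 and 501 in WT. WT replicate 3 lay within the HT range, and all 5 HT libraries were below the WT mean. The log2 fold change of Met was -0.40 ± 0.143 (limma, adjusted p = 0.705), and -0.43 ± 0.0646 in the other 49 (adjusted p = 9.65e-05). Kirrel2, a nephrin-like adhesion molecule, gave -0.46 ± 0.169, and -0.34 ± 0.0764 in the other 49. Il33, an alarmin cytokine, averaged 265 ± 39.5 in HT and 216 ± 34.5 in WT (SD, n = 5 each), with 0.30 ± 0.152 in vehicle males and 0.29 ± 0.0686 in the other 49. Ndp, which encodes norrin, a Frizzled ligand, gave 0.24 ± 0.124 (0.14 without WT replicate 2) and 0.24 ± 0.0563. Cxcl14, a chemokine, gave -0.08 ± 0.0659 and -0.16 ± 0.0298. Hgf, the ligand of Met, averaged 178 in HT and 182 in WT (log2 fold change -0.01 ± 0.177). Of the whole list, 6 of the 11 tested genes of the Met, Hgf and neurotrophin list were higher, 5 lower and 1 (Met) under an unadjusted p of 0.05.

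The rest included Trp53i11, enzymes, metal-binding proteins and genes of neurons. Trp53i11 had 2330, 2290, 2140, 2050 and 2370 in HT, against 2180, 1440, 2130, 1800 and 2050 in WT, and all 5 HT libraries were above the WT mean. It gave 0.24 ± 0.0871 in vehicle males and 0.24 ± 0.0395 in the other 49 (adjusted p = 0.000406 there), and without WT replicate 2 it was 0.14 in vehicle males. The metallothioneins Mt2 and Mt1, which bind zinc and copper, gave -0.25 ± 0.125 and -0.19 ± 0.107, against -0.31 ± 0.0568 and -0.23 ± 0.0483 in the other 49. Aldh1a1, a retinaldehyde dehydrogenase, averaged 1020 ± 97.6 in HT and 1220 ± 149 in WT (SD, n = 5 each), at -0.25 ± 0.119, against -0.28 ± 0.054. Pappa2, a protease of insulin-like growth factor binding proteins, gave -0.47 ± 0.27 and -0.60 ± 0.122. Among genes of neurons, Nefl, the light neurofilament, gave -0.11 ± 0.106 and -0.21 ± 0.0482, and Slc17a8, a vesicular glutamate transporter, -0.24 ± 0.168 and -0.33 ± 0.0763. Without WT replicate 2 the vehicle male values were -0.25 for Pappa2, -0.05 for Nefl and -0.04 for Slc17a8, and without HT replicate 2 that of Mt1 was -0.10. The 4 genes with the other direction in vehicle males were Kdm2b, a demethylase of H3K36, at -0.04 ± 0.0641 against 0.14 ± 0.029 in the other 49, Nudt18 (0.04 against -0.15), Gpr146 (0.04 against -0.17) and Erfe (0.14 against -0.51).

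**Figure D3:**
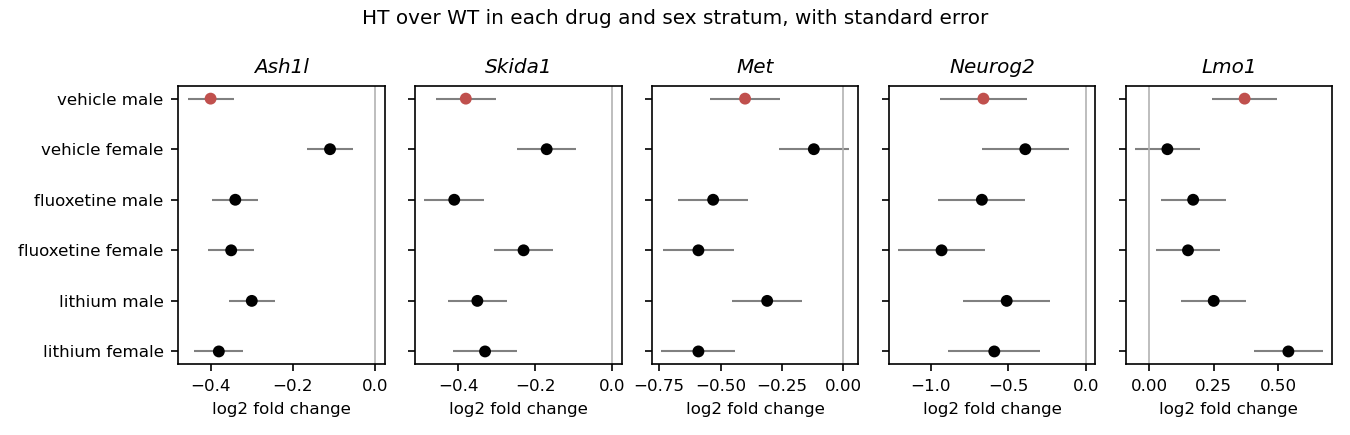
Log2 fold change, HT over WT, with standard error (horizontal) for 5 genes in each of the 6 drug and sex strata; vehicle males are red. Skida1 lay between -0.41 and -0.17 and Met between -0.59 and -0.12, both nearest to 0 in vehicle females, as were Ash1l (-0.11), Neurog2 (-0.39) and Lmo1 (0.07). This did not hold for all genes called in the other 49 libraries. Gm14569 (-1.17) and Nudt18 (-0.37), not plotted, were furthest from 0 in vehicle females, and Tbx1 was -1.91 there, against -1.81 in vehicle males.

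The gene lists that follow cover the chromatin pathways, cell types, neighbouring regions and responses of this tissue. Apart from Ash1l, no member of any list was called in vehicle males, so each list is described by its counts and its median. The shares to read them against are those over all genes: 49% higher and 51% lower, 3.68% and 3.26% with an unadjusted p under 0.05, and a median of 0.00.

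Of 16 genes of H3K36 methylation and of the Ash1l complex, 6 were higher and 10 lower, with a median log2 fold change of -0.05. Morf4l1, the partner of Ash1l, averaged 10500 ± 565 in HT and 9960 ± 1270 in WT (SD, n = 5 each; log2 fold change 0.09 ± 0.0648). Among the other enzymes of the mark, Setd2 gave -0.16 ± 0.0694 (-0.08 without WT replicate 2), Nsd1 -0.09 ± 0.0654, Nsd2 -0.07 ± 0.0787 and Nsd3 -0.02 ± 0.0634. Of 17 genes of KMT2 and Trithorax complexes, 13 were lower (median -0.13) and 6 had an unadjusted p under 0.05, all lower. Kmt2e had 3520, 3200, 3690, 3030 and 3800 in HT, against 3630, 5430, 4320, 3640 and 3530 in WT (log2 fold change -0.24 ± 0.0858). WT replicate 2 was the highest library for Kmt2e, and without it the value was -0.13. Kmt2d, an H3K4 methyltransferase, gave -0.28 ± 0.0995, and -0.31 without it, and Kdm6a, an X-linked demethylase that opposes Polycomb, gave -0.20 ± 0.067, and -0.19 without it. The median of the list without WT replicate 2 was -0.10, and it was 0.02 in the other 49 libraries.

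Of 30 Polycomb genes, 11 were higher and 19 lower (median -0.04), with 1 higher and 3 lower at an unadjusted p under 0.05. The core enzyme gene Ezh2 averaged 208 in HT and 206 in WT, and Ezh1 1450 in HT and 1400 in WT. Skida1, counted in this list, Pcgf2 (-0.24 ± 0.111) and Phc1 (-0.17 ± 0.0734) were the 3 lower ones, and Rbbp7 the higher one (0.15 ± 0.0655). Of 51 autism risk genes, 45 were lower, 6 of them with an unadjusted p under 0.05. The median was -0.09, or -0.05 without WT replicate 2 and -0.03 with the GC trend removed. It was 0.18 in vehicle females, 0.06 in fluoxetine females, -0.03 in fluoxetine males, -0.06 in lithium males and -0.07 in lithium females. Over the other 49 libraries the median was 0.02. Adnp, a homeobox protein of chromatin remodelling, had 2420, 1910, 1500, 1550 and 1590 in HT, against 2340, 2150, 2920, 2190 and 2280 in WT (log2 fold change -0.42 ± 0.144; limma, adjusted p = 0.705). HT replicate 1 lay within the WT range. Kmt5b and Ehmt1, both histone methyltransferases, gave -0.18 ± 0.0678 and -0.22 ± 0.0827.

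Forebrain patterning factors were lower in 21 of 22 cases, with a median of -0.28 that depended on single libraries. The list was drawn up with the calls of Tbx1 and Neurog2 known, and 4 of its members (Dlx1, Eomes, Meis2 and Sp8) are also among the 14 olfactory bulb markers, of which 13 were lower (median -0.41). The mean log2 level of the olfactory bulb markers was 7.39, 7.42, 9.23, 7.54 and 10.56 in HT, against 10.34, 6.76, 11.33, 9.08 and 6.57 in WT. Their summed normalised counts ran from 11100 to 34100 in HT and from 10500 to 56100 in WT, and 1 marker, Ms4a15, was at 0 in some library. The groups overlapped widely, and the median of the list lay between -0.92 without WT replicate 5, the library with the lowest level, and 0.13 without WT replicate 3, the one with the highest. It was -0.85 without HT replicate 5, -0.84 without WT replicate 2 and -0.13 without WT replicate 1. The median of the patterning factors lay between -0.42 without WT replicate 5 and -0.07 without WT replicate 3. It was -0.40 without HT replicate 5, -0.20 without WT replicate 1, -0.18 without HT replicate 4 and -0.18 with the 2 marker levels as covariates. In the other 49 libraries the median was -0.01 for the patterning factors and 0.31 for the olfactory bulb markers. By stratum there, the median of the patterning factors ran from -0.41 in lithium females to 0.28 in fluoxetine females.

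Within the patterning factors, 4 had an unadjusted p under 0.05. Emx2, a homeobox gene of the dorsal forebrain, had 249, 280, 271, 269 and 246 in HT, against 344, 432, 287, 353 and 299 in WT, and the groups did not overlap (log2 fold change -0.37 ± 0.113; limma, adjusted p = 0.705). It was -0.28 without WT replicate 2 and -0.19 ± 0.0511 in the other 49 libraries (adjusted p = 0.115 there). Otx1, a homeobox gene of deep cortical layers, gave -0.37 ± 0.148 and -0.23 ± 0.0671. Tbx1 and Neurog2 were the other two. Tbr1 and Nr2f1, factors of cortical projection neurons, gave 0.03 ± 0.146 and -0.02 ± 0.0999. Eomes, also an olfactory bulb marker, gave -0.22 with a standard error of 2.09.

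**Figure D4:**
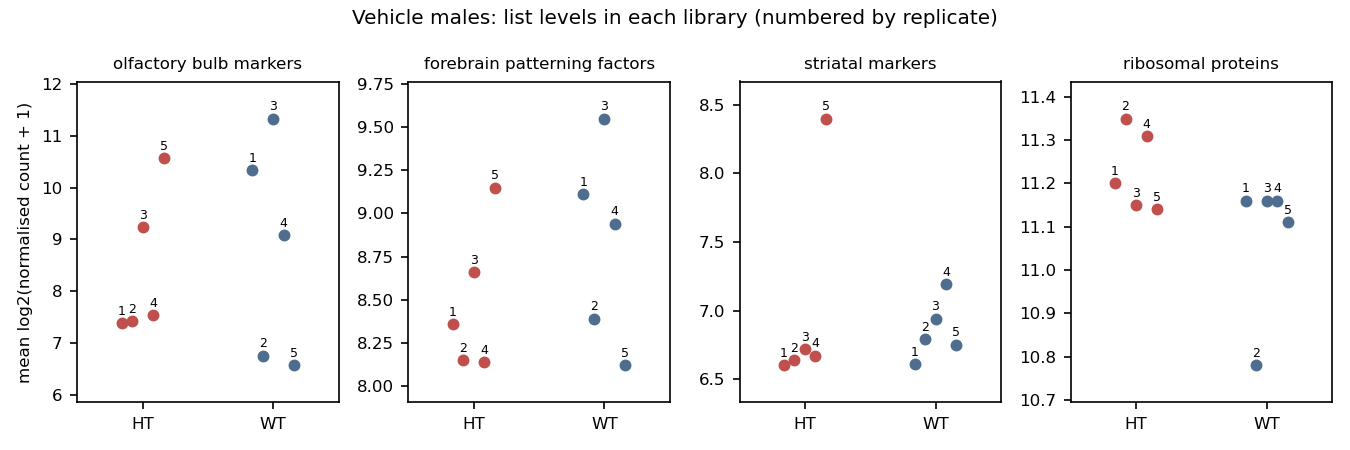
Mean log2(normalised count + 1) of 4 gene lists (vertical axes, which do not start at 0) in each HT and WT vehicle male library, numbered by replicate. Olfactory bulb markers and patterning factors were high in HT replicate 5, WT replicate 1 and WT replicate 3, striatal markers were high in HT replicate 5 (8.40), and ribosomal protein genes were low in WT replicate 2 (10.78).

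Markers of the striatum were high in 1 library. Their mean log2 level was 8.40 in HT replicate 5 and 6.60 to 6.72 in the other HT libraries, against 6.61 to 7.19 in WT, with summed normalised counts of 10900 to 18900 in HT and 10900 to 12800 in WT. Of 18 tested, 14 were higher, with a median of 0.15 that was -0.08 without HT replicate 5, and Isl1 and Six3 were at 0 in some library. Thalamic, hippocampal and claustral markers gave 7 higher and 7 lower of 14 (median -0.04). Choroid plexus and ependymal markers gave 5 higher and 9 lower of 14 (median -0.07), with Ttr, Cldn2 and Otx2 at 0 in some library. Blood genes gave 5 higher and 3 lower of 8 (median 0.27, and 0.13 without WT replicate 2).

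Ribosomal protein genes were higher in 76 of 79 cases, with a median log2 fold change of 0.16, and 35 had an unadjusted p under 0.05. Rps4x had 3810, 4430, 3900, 4370 and 3830 in HT, against 3590, 2820, 3720, 3650 and 3620 in WT, without overlap (log2 fold change 0.23 ± 0.0714; limma, adjusted p = 0.705). The mean log2 level of the list was 11.14 to 11.35 in HT, against 10.78 in WT replicate 2 and 11.11 to 11.16 in the other WT libraries. Without WT replicate 2 the median was 0.08. The median was -0.22 in vehicle females and -0.06 in fluoxetine females. It was 0.18 in fluoxetine males, 0.12 in lithium males, 0.08 in lithium females and 0.02 over the other 49 libraries.

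Of 76 nuclear genes of the respiratory chain, 73 were higher (median 0.14) and 22 had an unadjusted p under 0.05. Uqcrh, a hinge subunit of complex III, had 2820, 3020, 2590, 3020 and 2710 in HT, against 2320, 2430, 2430, 2420 and 2400 in WT. Its groups did not overlap, and its log2 fold change of 0.24 ± 0.0812 was also 0.24 without WT replicate 2. The median of the list was 0.07 without that library, -0.16 in vehicle females and -0.01 in the other 49. It was 0.05 in fluoxetine males, -0.12 in fluoxetine females, 0.10 in lithium males and 0.07 in lithium females. The 13 respiratory genes of the mitochondrial genome gave 2 higher and 11 lower (median -0.14, and 0.07 without WT replicate 2).

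Among cell types, microglial markers were higher in 16 of 18 cases (median 0.16, and 0.11 without WT replicate 2), and 7 had an unadjusted p under 0.05. Tyrobp, an adaptor of microglial receptors, had 257, 301, 284, 316 and 229 in HT, against 256, 157, 217, 228 and 252 in WT (log2 fold change 0.33 ± 0.109, and 0.21 without WT replicate 2). Csf1r, the receptor on which microglia depend, gave 0.28 ± 0.106, and 0.17 without that library. Ctss, a lysosomal protease, gave 0.29 ± 0.106, and 0.40 without it. The mean log2 level of the list overlapped, at 9.17 to 9.52 in HT and 9.17 to 9.41 in WT, and its median was 0.01 in the other 49. Interferon-stimulated genes were higher in 19 of 23 cases (median 0.16, and 0.12 without WT replicate 2). Of these, Bst2, a tether of budding viruses, gave 0.48 ± 0.179 and the class I gene H2-D1 0.29 ± 0.111. Without WT replicate 2 these were 0.31 and 0.19. Stat2 gave -0.17 ± 0.0697. Mx2, an interferon-induced gene that is not on this list, went the other way, at -0.80 ± 0.241. The median of the interferon list was 0.06 in the other 49, from -0.01 in fluoxetine females to 0.33 in fluoxetine males.

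Astrocyte markers gave 7 higher and 11 lower of 18 (median -0.02), with Glul at -0.17 ± 0.0752 and Aldoc at 0.15 ± 0.0734. Oligodendrocyte and myelin genes gave 16 higher of 18 (median 0.11), but the median was 0.01 without HT replicate 5, 0.02 without WT replicate 1, 0.26 without WT replicate 4 and -0.06 without WT replicate 5. The oligodendrocyte precursor markers gave 2 higher and 8 lower (median -0.04). Endothelial markers gave 8 higher and 10 lower (median -0.01), including Ly6a at 0.43 ± 0.141 (0.20 without WT replicate 2) and Ocln, a tight junction protein, at -0.28 ± 0.11. Pericyte and smooth muscle markers gave 7 higher and 5 lower (median 0.16, and 0.06 without WT replicate 2), and meningeal fibroblast markers 12 higher and 3 lower (median 0.16, and 0.01 without WT replicate 2). In neurons, cortical layer markers gave 9 higher and 11 lower (median -0.02, and 0.09 without WT replicate 2), with Rorb of layer 4 at -0.24 ± 0.112, and interneuron markers and neuropeptides 8 higher and 14 lower (median -0.03).

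**Figure D5:**
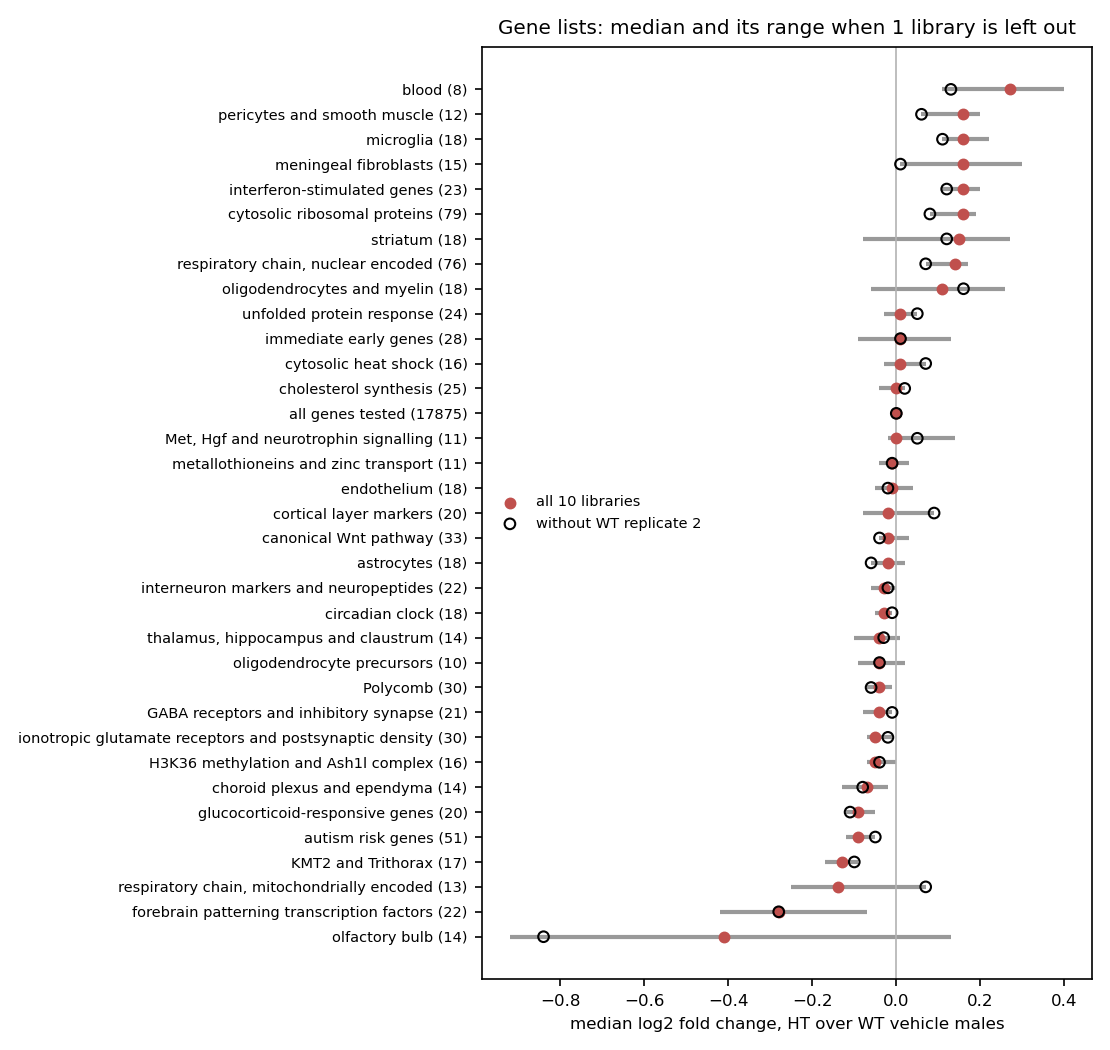
Median log2 fold change, HT over WT vehicle males (horizontal), of each gene list, with the number of genes tested in brackets; red points use all 10 libraries, open circles leave out WT replicate 2, and grey bars span the medians with any 1 library left out. The olfactory bulb list has the widest span (-0.92 to 0.13), and the ribosomal and nuclear respiratory lists have their lowest medians, 0.08 and 0.07, without WT replicate 2.

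Ionotropic glutamate receptor and postsynaptic density genes gave 11 higher and 19 lower of 30 (median -0.05), with Shank1, a postsynaptic scaffold, at -0.31 ± 0.152. GABA receptor and inhibitory synapse genes gave 5 higher and 16 lower of 21 (median -0.04). Immediate early genes, which neurons switch on with activity, gave 14 higher and 14 lower (median 0.01). In the canonical Wnt pathway 15 were higher and 18 lower (median -0.02). Axin2, a feedback target of the pathway, had 735, 641, 775, 727 and 756 in HT, against 831, 887, 856, 848 and 842 in WT, and the groups did not overlap (log2 fold change -0.23 ± 0.0774; limma, adjusted p = 0.705). In the other 49 libraries Axin2 gave 0.02 ± 0.0351.

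Of the metabolic and stress lists, cholesterol synthesis gave 12 higher and 13 lower of 25 (median 0.00), glucocorticoid-responsive genes 6 higher and 14 lower of 20 (median -0.09), and metallothioneins and zinc transporters 5 higher and 6 lower of 11 (median -0.01). Genes of the unfolded protein response gave 13 higher and 11 lower of 24 (median 0.01) and cytosolic heat shock genes 8 and 8 of 16 (median 0.01). Clock genes gave 5 higher and 13 lower of 18 (median -0.03), with Bhlhe40, a repressor of the clock, at 0.30 ± 0.125 and all 5 HT libraries above the WT mean. The 5 genes of the sex check (Xist and 4 Y-linked genes) gave a median of 0.11, and -0.04 without HT replicate 4, the library with the highest Ddx3y (2260).

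Whether the genotype difference of vehicle males departed from that of other strata was tested directly. Against the mean of the other 5 strata, 0 genes were called (0%) by limma or by edgeR and 1 by DESeq2 (the predicted gene Gm10297), with 1150 at an unadjusted p under 0.05 in limma. Within vehicle females 1109 genes were called by genotype (6.2%), but Ash1l was not among them (log2 fold change -0.11; limma, adjusted p = 0.21). Its normalised read count there ran from 3557 to 5048 in WT and from 4107 to 4382 in HT. For vehicle males minus vehicle females, 519 genes were called (2.9%), 203 with a higher and 316 with a lower value in males, and by unadjusted p 3677. Adnp gave a log2 fold change of -0.42 in vehicle males and 0.54 in vehicle females, a difference of -0.96 (limma, adjusted p = 0.0247). Kdm6a gave -0.20 in males and 0.29 in females, and Uqcrh 0.24 in males and -0.24 in females, with differences of -0.50 and 0.48 (limma, adjusted p = 0.0247 and 0.0268). This count depended on single libraries. It was 0 without any 1 of WT vehicle male replicate 2, WT vehicle male replicate 3, HT vehicle female replicate 4 and WT vehicle female replicate 3, and 0 with the GC trend removed. Leaving out HT vehicle male replicate 2 left 1 gene, the predicted Gm6206. The count was 34 when HT vehicle male replicate 4 was left out, and 37 when HT vehicle female replicate 2 was.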

How the data were processed

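Prefrontal cortex RNA of 59 libraries was measured with a stranded mRNA kit, per the labels' protocols. Per the submitters' processing notes, Salmon 0.11.2, R 3.6.0, DESeq2 1.19.11 and GRCm38 were used, in roles not given in the sources used here. The deposited signal is a read count divided by a size factor: all values came out whole within 0.01 in all 59 libraries (24.47 M to 36.32 M reads). Reads without molecular identifiers are not independent molecules.

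The test was limma 3.58.1 in R 4.3.3 (trend, robust) on log2(normalised count + 1), with 1 mean for each of 12 groups and all 59 libraries, for 17875 genes at 10 or more in at least 5 libraries (213 left out). "Called" means a Benjamini-Hochberg adjusted p under 0.05. The mean of the other 5 genotype differences shares no library with vehicle males but shares the spread estimate. Errors are standard errors unless SD is given. Alternatives included edgeR 4.0.16 and DESeq2 1.42.0 on recovered reads. The script was tested on simulated data.

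Named genes were Ash1l, 12 genes in each direction ranked by p (no predicted genes), up to 3 members per list with an unadjusted p under 0.05, the first 10 called in the other 49 libraries, up to 6 per difference between strata and neighbours of Ash1l; other members were named after their values were seen. Members, lists and rules were chosen with earlier results of these data known. Of 763 listed genes, 751 were tested. Same-numbered HT and WT vehicle males were not treated as pairs in the main test. Symbols matched for 18077 of 18088 genes.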

Additional observations from a re-analysis of the deposited data

Results flagged for a closer look

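Of 276 groups of 5 values looked at (103 genes and 35 list levels), 16 held a library far from the other 4 by Dixon's test, where chance flags about 1 in 20. WT vehicle male replicate 2 was low for Rps6 (2420, against 3510 to 3660 in the other WT libraries), Rps4x (2820, against 3590 to 3720), Ly6a (132, against 283 to 321), H2-D1 (570, against 776 to 842) and for the mean log2 level of ribosomal protein genes (10.78, against 11.11 to 11.16), and high for Ctss (1640, against 1070 to 1230). HT replicate 5 was high for the mean log2 levels of striatal markers (8.40, against 6.60 to 6.72), thalamic, hippocampal and claustral markers (8.72, against 8.33 to 8.43) and oligodendrocyte precursor markers (10.44, against 10.25 to 10.30). The others were Mt2 in HT replicate 2 (998, against 1240 to 1320), Gm15417 in HT replicate 4 (44.9, against 27.0 to 30.8), Pcdh15 in WT replicate 4 (1000, against 1210 to 1260), Adnp in WT replicate 3 (2920, against 2150 to 2340), Uqcrh in WT replicate 1 (2320, against 2400 to 2430), Cyp11a1 in WT replicate 3 (96.0, against 138 to 146) and the mean log2 level of Polycomb genes in WT replicate 3 (9.85, against 9.71 to 9.75).

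The genotype difference departed between vehicle males and vehicle females for 519 genes (limma), a count that was 0 without WT vehicle male replicate 2 or without WT vehicle female replicate 3. Of the 103 named genes, 23 passed, against 2.9% of all genes tested. Some were named for this difference itself, and others for their p-values in vehicle males, which form part of it. The count of 23 was therefore partly set by how the genes were chosen and cannot be read against that share. The difference of log2 fold changes, males minus females, was negative for Ash1l (-0.29), Kdm6a (-0.50), Adnp (-0.96), Kmt2e (-0.51), Kmt5b (-0.40), Zbtb6 (-0.73), Jmjd1c (-0.54), Pcmtd2 (-0.54), Mid1 (-1.53), Zzz3 (-0.34), Pcdh15 (-0.85) and Mybpc1 (-1.02). It was positive for Mtch1 (0.46), Cnpy3 (0.42), Pxdc1 (0.53), Psmb1 (0.35), Rps6 (0.37), Rps4x (0.38), Uqcrh (0.48), Tyrobp (0.57), Polr1d (0.34), Usp35 (0.52) and Nudt18 (0.41).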

How the results depend on the processing

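Of 2340 values of 102 named genes besides Ash1l under alternative settings, 2316 kept their direction and their side of the threshold. Skida1 gained a call in 2, and 22 turned sign, all of them within 0.08 of 0. None of the 102 was called in the main test and many were chosen for small p-values in vehicle males, so this tally cannot show that their sizes held. Without WT replicate 2, Slc17a8 went from -0.24 to -0.04 and Ly6a from 0.43 to 0.20, and both count as kept. The genes called in vehicle males numbered 2 with a stricter filter on low counts and with DESeq2, 0 with the 20 vehicle or the 10 vehicle male libraries alone, where the log2 fold change of Ash1l stayed at -0.40 without passing, and 1 to 2 with any 1 library left out; the second gene was Gm6206 without HT replicate 2 or HT replicate 4. With the replicate block the count was 1. Residuals of same-numbered libraries did not go together (mean correlation -0.101, against 0.0251 for different numbers, 0 of 5 pairs over 0.1). So few pairs cannot show whether the numbers follow litters, which the labels do not give. In the other 49 libraries the count of 38 was 89 with library quality weights, 71 without WT vehicle male replicate 2 and WT vehicle female replicate 3, 78 with DESeq2, 85 with the 2 marker levels as covariates (added after the data were seen) and 19 to 60 with any 1 library left out (highest when WT vehicle female replicate 3 was dropped, lowest when HT vehicle female replicate 2 was). For vehicle males minus the other 5 strata it was 1 with DESeq2. For vehicle males minus vehicle females, 519 became 93 with quality weights, 0 with the 20 vehicle libraries, 0 with the GC trend removed, 0 without the 2 libraries, 1196 with DESeq2 and 0 to 1367 with any 1 library left out. Values that turned sign were Rusc1 (-0.07 with quality weights, -0.04 with the GC trend removed, -0.08 without the 2 libraries, -0.01 with marker covariates or DESeq2, 0.00 with edgeR, -0.08 to 0.06 with 1 library left out), Gpr146 (-0.05 with quality weights, -0.03 without the 2 libraries, -0.03 to 0.09 with 1 left out), Nudt18 (0.00 with quality weights, -0.01 to 0.10 with 1 left out), Kdm2b (-0.06 to 0.01 with 1 left out) and Msto1 (-0.07 to 0.03 with 1 left out). The causes were not tested. Depth limits genes at low counts such as Tbx1, whose log2 fold change was -1.14 with a pseudocount of 10, against -1.81 with 1.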
